A study of Mus musculus with 31 samples.

Results

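Hypothalamic neuropeptide precursors are the genes of 10 secreted peptides that neurons of the hypothalamus use as hormones and transmitters: Pomc, Sst, Pmch, Ghrh, Gal, Npy, Trh, Cartpt, Tac1 and Agrp. They were listed by name, and all 10 were found among the 34865 genes of the bulk table and in the Smart-seq2 table. RNA was sequenced in bulk from dorsal and from ventral diencephalon of wild type mice at E10.5, with 3 libraries per region and between 17604411 and 20838226 counts per library. A second table holds Smart-seq2 profiles (full-length RNA-seq for very small inputs) from medial cortex at E11.5. Of these, 13 libraries carry the label Emx1-cre(+/-)::MDMD::Axin2(-/-) and 12 the label Emx1-cre(+/-)::MDMD::Axin2(+/+). The protocol gives the cross as Emx1-CreERT2::MADM-11::Axin2LacZ/+, so that both genotypes carry a Cre driven by Emx1, a gene of the dorsal telencephalon. The Smart-seq2 columns give a colour letter for the genotype but no number that ties a column to 1 sample.

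A neuropeptide is made as part of a longer precursor that enters the secretory pathway, is cut by prohormone convertases at pairs of basic residues, is trimmed and often amidated, and is stored in dense-core granules until release. Its receptors are nearly all G protein-coupled. In the adult hypothalamus, arcuate neurons that make Pomc lower food intake and neighbouring neurons that make Agrp with Npy raise it, while Ghrh, Trh and Sst reach the pituitary through the portal blood and govern the release of its hormones. The ventral diencephalon of the embryo gives rise to the hypothalamus.

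The starting points of transcription are shown for 5 precursors: 4 that were higher in ventral libraries, and Cartpt, which was not called and shares a motif with Sst. Each line gives the 250 bases before a RefSeq start site on GRCm38.p6, 5′ to 3′ on the gene's strand, with 2 motifs in capitals: TATAAA, the core of a promoter's TATA box (searched on both strands), and TGACGTCA, the cAMP response element (a palindrome). The windows are Pomc at chr12:3954695-3954944 (plus strand), Sst at chr16:23890845-23891094 (minus), Pmch at chr10:88090822-88091071 (plus), Ghrh at chr2:157337427-157337676 (minus, the start site further downstream of 2) and Cartpt at chr13:99900684-99900933 (minus).
Pomc: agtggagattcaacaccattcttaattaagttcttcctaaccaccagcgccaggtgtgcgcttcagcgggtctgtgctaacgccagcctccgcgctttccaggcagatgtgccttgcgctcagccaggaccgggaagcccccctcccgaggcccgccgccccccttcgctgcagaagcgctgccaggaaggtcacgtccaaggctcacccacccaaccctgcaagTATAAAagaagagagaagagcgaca
Sst: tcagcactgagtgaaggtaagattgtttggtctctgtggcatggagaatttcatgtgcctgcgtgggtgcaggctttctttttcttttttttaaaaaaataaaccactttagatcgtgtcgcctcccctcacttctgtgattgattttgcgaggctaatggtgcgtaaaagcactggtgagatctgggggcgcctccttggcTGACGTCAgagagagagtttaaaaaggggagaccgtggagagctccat
Pmch: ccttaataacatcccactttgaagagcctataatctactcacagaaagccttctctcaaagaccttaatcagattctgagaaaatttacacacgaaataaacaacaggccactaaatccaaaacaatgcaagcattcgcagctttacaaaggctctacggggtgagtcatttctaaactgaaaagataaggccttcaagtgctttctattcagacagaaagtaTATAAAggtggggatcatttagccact
Ghrh: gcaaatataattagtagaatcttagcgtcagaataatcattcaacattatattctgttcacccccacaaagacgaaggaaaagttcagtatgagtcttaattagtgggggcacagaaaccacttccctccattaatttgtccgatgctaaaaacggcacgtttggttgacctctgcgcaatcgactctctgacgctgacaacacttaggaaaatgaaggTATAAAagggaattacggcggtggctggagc
Cartpt: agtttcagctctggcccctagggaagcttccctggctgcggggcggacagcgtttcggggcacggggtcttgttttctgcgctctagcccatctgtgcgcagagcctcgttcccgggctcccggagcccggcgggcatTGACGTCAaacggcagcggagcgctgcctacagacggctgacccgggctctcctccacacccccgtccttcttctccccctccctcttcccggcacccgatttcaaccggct

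TATAAA stood in the windows of 3 members, at -25 in Pomc, -27 in Pmch and -31 in Ghrh, counting its first base from the start site. TGACGTCA stood in the windows of 2 members, at -48 in Sst and -112 in Cartpt. Of 32851 RefSeq windows of the same length, 12.4% held TATAAA and 1.55% held TGACGTCA. The E-box CANNTG, which neurogenic bHLH factors bind, was found in 6 members and in 66.2% of all windows, and the homeodomain core TAATTA in 3 members and 4.84% of all windows. TAATTA was in the windows of Pomc, Ghrh and Tac1, and neither Gal nor Npy held any of the 4 motifs. TGACGTCA, TAATTA and CANNTG match both strands alike. Windows were found for 9 members, the exception being Agrp. Sst and Cartpt share a motif, yet Sst was called higher in ventral libraries and Cartpt was not called. A match is a run of letters and not a measured binding site.

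The regional labels were checked first. All 8 telencephalic genes on a list with Emx1 and all 10 tested thalamic genes were higher in dorsal libraries. The telencephalic list summed to between 2097 and 2401 CPM (counts per 1000000 counts, after TMM scaling) there and to between 53.5 and 62.8 CPM in ventral libraries. Of 27 tested genes that specify the hypothalamus, 20 rose in ventral and 2 in dorsal tissue. The labels call every sample neural progenitor cells, yet neuron genes summed to 5172 to 5939 CPM in dorsal tissue and 5897 to 6471 CPM in ventral tissue. Ventral libraries also carried small-intestine and exocrine pancreas transcripts, whose values stand beside the results below. In such bulk RNA, fewer cells that make a peptide and less RNA per cell cannot be told apart.

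Of the 10 precursors, 6 were higher in ventral and 0 in dorsal diencephalon: Pomc, Sst, Pmch, Ghrh, Gal and Tac1. Their fold differences ran from 2.03 for Tac1 to 33.7 for Pomc. Npy, Trh and Cartpt were tested and did not pass, and Agrp lay below the minimum mean of 1 CPM for testing. Among all 14701 genes tested, 16.7% were called in either direction and 9.54% were called higher in ventral against 7.14% called higher in dorsal (edgeR quasi-likelihood test, Benjamini-Hochberg adjusted over all tested genes, threshold 0.05). The median log2 fold change was 2.59 over the 9 tested precursors and -0.01 over all tested genes. The labels name no embryo for any bulk library. The p-values therefore measure how far these 3 libraries per region spread, and that spread may be technical. Pomc, Sst and Pmch were called under all 15 alternative analyses. When libraries 1 and 2 of each region, the closest pairs (r = 0.995 dorsal and 0.987 ventral across genes, which are not independent replicates), were summed to 1 library each, only these 3 of the 10 precursors were still called.

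**Figure D1:**
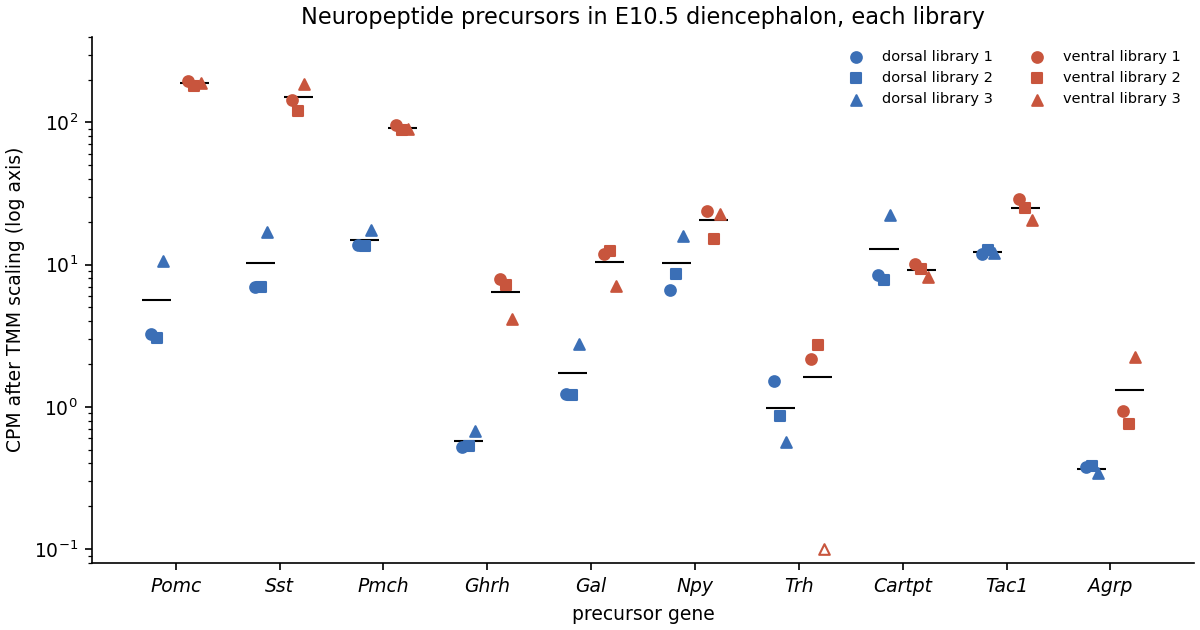
Level of each precursor in the 3 dorsal (blue) and 3 ventral (red) libraries, in CPM after TMM scaling on a log axis; marker shape gives the library number, black lines are means, and the open triangle is ventral library 3 without Trh counts, drawn at 0.1. All ventral libraries lie above all dorsal ones for Pomc, Sst, Pmch, Ghrh, Gal, Tac1 and Agrp, and the regions overlap for Npy, Trh and Cartpt.

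Pomc and Agrp belong to the feeding circuit of the arcuate nucleus. Pomc (ENSMUSG00000020660, chromosome 12, 3954951 to 3960642, plus strand, 5 exon blocks) encodes pro-opiomelanocortin, the source of the melanocortins, ACTH and beta-endorphin. It stood at 195, 180 and 190 CPM in ventral libraries 1, 2 and 3 and at 3.25, 3.03 and 10.6 CPM in dorsal libraries 1, 2 and 3. The ventral libraries were close together and the lowest was 16.9 times the highest dorsal one, while dorsal library 3 lay above the other dorsal libraries. The regional means were 188 ± 7.92 and 5.63 ± 4.32 CPM (SD, n = 3 each), which is a log2 fold change of 5.07 ± 0.51 (standard error; adjusted p = 0.000586, edgeR). Of all tested genes, 3.54% had a larger rise in ventral. Agrp (ENSMUSG00000005705, chromosome 8, 105566698 to 105637393, minus strand) encodes the agouti-related peptide, which blocks melanocortin receptors. It rested on 22 counts in all over the dorsal and 73 over the ventral libraries. Its ventral values were 0.939, 0.759 and 2.23 CPM and its dorsal values 0.377, 0.385 and 0.341 CPM. The groups did not overlap, which was also so, with ventral above, for 20.0% of all tested genes. With no minimum for testing, the log2 fold change of Agrp was 1.81 with an adjusted p of 0.282 by edgeR. Its annotated exons share 114 bases, 11.3% of their length, with Ctcf on the opposite strand, and whether counting used strand is not given in the sources used here.

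Npy and Cartpt, which accompany Agrp and Pomc in adult arcuate neurons, were not called. Npy (chromosome 6, 49822710 to 49829507, plus strand) encodes neuropeptide Y, a strong stimulant of feeding that is also made by many neurons outside the hypothalamus. It was at 23.6, 15.2 and 22.7 CPM in ventral libraries and 6.64, 8.52 and 15.8 CPM in dorsal ones. Ventral library 2 lay just below dorsal library 3. Its log2 fold change of 0.99 ± 0.38 (standard error) did not pass (adjusted p = 0.122, edgeR). Without dorsal library 3 it was 1.43 and passed (adjusted p = 0.0273 by edgeR). Cartpt (chromosome 13, 99898489 to 99901091, minus strand) encodes the cocaine- and amphetamine-regulated transcript peptides. Its 3 ventral libraries held 10.1, 9.38 and 8.20 CPM and its dorsal libraries 8.43, 7.75 and 22.5 CPM. Dorsal library 3 alone stood above the ventral range, dorsal library 1 lay within it and dorsal library 2 below it. The log2 fold change of -0.48 (standard error 0.45, adjusted p = 0.524 by edgeR) became 0.18 (adjusted p = 0.703) without that library.

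Dorsal library 3 was the highest dorsal library for 5 of the 10 precursors by a factor of at least 2 over the mean of the other two: Pomc at 3.38 times, Cartpt at 2.78, Sst at 2.43, Gal at 2.29 and Npy at 2.08. Of 14534 tested genes, 10.7% reached that factor of 2. Hypothalamic transcription factors in the same library went both ways. Otp, a homeobox gene of peptide-secreting neurons, was at 15.95 CPM against 3.63 and 2.84 CPM in dorsal libraries 1 and 2. Nkx2-1, the main ventral forebrain homeobox gene, was at 8.40 CPM against 10.8 and 10.3 CPM, and Nr5a1 of the ventromedial nucleus at 0.284 CPM against 1.22 and 1.01 CPM. The part of tissue content in the higher precursor values of this library was not tested.

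Somatostatin and growth hormone-releasing hormone act on growth hormone release in opposite ways, and both were higher in ventral diencephalon. Sst (ENSMUSG00000004366, chromosome 16, 23889573 to 23890958, minus strand, 2 exon blocks) encodes somatostatin, the inhibitor. It stood at 144, 120 and 186 CPM in ventral and 7.02, 6.93 and 16.9 CPM in dorsal libraries. The lowest ventral library was 7.11 times the highest dorsal one. Means were 150 ± 33.1 and 10.3 ± 5.74 CPM (SD, n = 3 each), and the log2 fold change was 3.87 ± 0.41 (standard error; adjusted p = 0.000684, edgeR). Ghrh (ENSMUSG00000027643, chromosome 2, 157329497 to 157347506, minus strand, 7 exon blocks) encodes the stimulating hormone. It was at 7.96, 7.21 and 4.13 CPM in ventral and 0.518, 0.530 and 0.681 CPM in dorsal libraries, the latter resting on 34 counts in all. The regions did not overlap, and ventral library 3 was the lowest ventral one. The log2 fold change was 3.47 ± 0.54 (standard error; adjusted p = 0.00409, edgeR). Among the 14 alternatives in which Ghrh was tested, the call was lost when libraries 1 and 2 were summed (3.28, adjusted p = 0.119), and limma on log2(CPM + 1) gave a smaller value of 2.20.

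Pmch and Trh are made in the lateral and paraventricular hypothalamus. Pmch (ENSMUSG00000035383, chromosome 10, 88091072 to 88092375, plus strand, 3 exon blocks) encodes melanin-concentrating hormone, a peptide of lateral hypothalamic neurons that promotes feeding and sleep. Ventral libraries held 95.3, 88.7 and 90.4 CPM and dorsal libraries 13.8, 13.5 and 17.5 CPM. Both groups were tight, with means of 91.5 ± 3.40 and 14.97 ± 2.23 CPM (SD, n = 3 each). The log2 fold change was 2.61 ± 0.19 (adjusted p = 0.000125, edgeR), and that standard error was the smallest among the 9 tested precursors. Of the exon length of Pmch, 58.1% (435 bases) overlaps exons of Parpbp on the opposite strand, so its counts may include reads of that gene. Parpbp itself, a regulator of DNA repair, averaged 5.35 ± 3.09 CPM dorsally and 2.97 ± 0.688 CPM ventrally (SD, n = 3 each) and was not called (adjusted p = 0.388 by edgeR). Trh (chromosome 6, 92242061 to 92244650, minus strand), the precursor of thyrotropin-releasing hormone, varied widely between ventral libraries. It had 44, 50 and 0 counts in ventral and 32, 18 and 10 in dorsal libraries, which is 2.175, 2.71 and 0 against 1.51, 0.867 and 0.568 CPM. The 0 of ventral library 3 allows up to 0.167 CPM (3 counts, counting error only), below every dorsal library, while the other two ventral libraries lay above every dorsal one. With this spread the difference between regions did not pass (log2 fold change 0.73, standard error 1.23, adjusted p = 0.739 by edgeR). Across genes, ventral library 3 correlated less with ventral libraries 1 and 2 (r = 0.925 and 0.914) than those did with each other (0.987). Other low genes went both ways in it. Penk was at 3.16, 2.87 and 0 CPM in ventral libraries 1, 2 and 3, and Pthlh at 0.0494, 0.108 and 3.35 CPM. The part of library quality in the 0 of Trh was not tested.

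Gal and Tac1 encode peptides used widely in the nervous system. Gal (ENSMUSG00000024907, chromosome 19, 3409915 to 3414544, minus strand, 6 exon blocks), the precursor of galanin, was at 11.9, 12.5 and 7.03 CPM in ventral and 1.22, 1.20 and 2.78 CPM in dorsal libraries. The groups did not overlap, and the lowest ventral library was 2.53 times the highest dorsal one. That gave a log2 fold change of 2.59 ± 0.51 (standard error; adjusted p = 0.0115, edgeR). The call was lost without dorsal library 1 (adjusted p = 0.0591), dorsal library 2 (0.0538) or ventral library 1 (0.0521). Tac1 (ENSMUSG00000061762, chromosome 6, 7554879 to 7565834, plus strand, 9 exon blocks) encodes substance P and neurokinin A. It was at 29.1, 25.2 and 20.6 CPM in ventral and 11.9, 12.8 and 12.2 CPM in dorsal libraries. The dorsal values were nearly equal and the ventral mean was 2.03 times theirs, for a log2 fold change of 1.02 ± 0.24 (standard error; adjusted p = 0.0216, edgeR). Without dorsal library 1, dorsal library 2, ventral library 1 or ventral library 2 the adjusted p was 0.103, 0.0855, 0.106 or 0.0763.

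**Figure D2:**
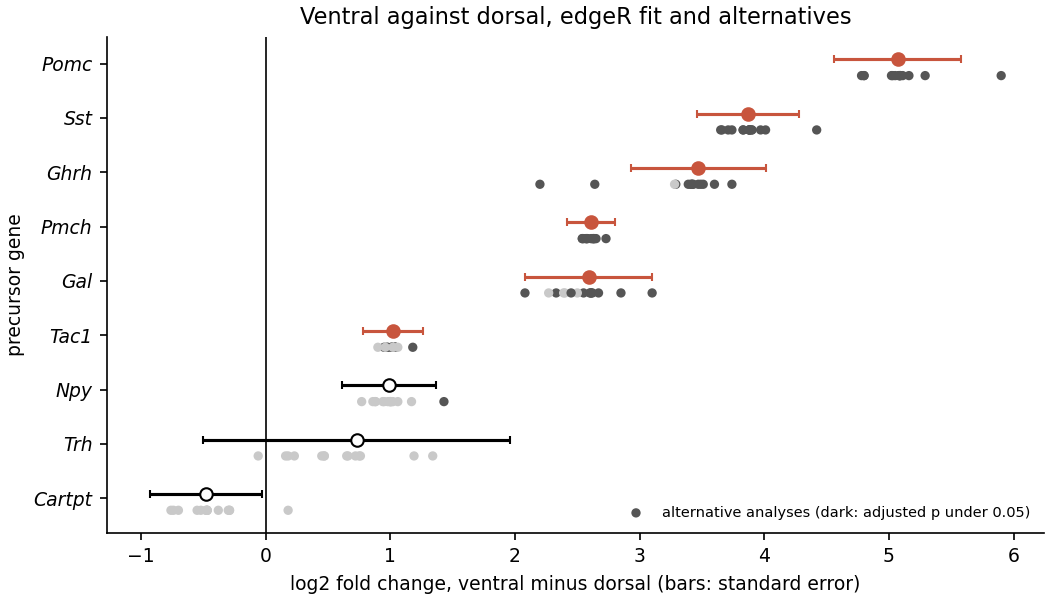
Log2 fold change of each tested precursor, ventral minus dorsal, with its standard error (red: adjusted p under 0.05 by edgeR; open: not called) and, in small points below it, the same value under each alternative analysis (dark where the call held). The points of Pomc, Sst and Pmch are dark throughout, while those of Gal and Tac1 are partly light and those of Trh and Cartpt reach both sides of 0.

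Levels can be compared between genes once counts are divided by exon length. On the scale of CPM per kilobase of annotated exon, the ventral order was Sst at 208 ± 45.9, Pomc at 143 ± 6.01, Pmch at 122 ± 4.55, Npy at 36.2 ± 8.19, Gal at 13.3 ± 3.82, Ghrh at 9.63 ± 3.04, Tac1 at 7.34 ± 1.26, Cartpt at 7.23 ± 0.764, Agrp at 1.29 ± 0.792 and Trh at 1.18 ± 1.04 (SD, n = 3 each). The libraries of neighbours in this order did not overlap for the first 4 steps, down to Npy above Gal, nor between Cartpt and Agrp. They overlapped between Gal, Ghrh, Tac1 and Cartpt, and between Agrp and Trh. The dorsal order was flat at the top, led by Pmch at 20.0 ± 2.98, Npy at 18.2 ± 8.53, Sst at 14.3 ± 7.96 and Cartpt at 10.1 ± 6.51 CPM per kilobase, and each of these overlapped the next. Pomc, second in ventral libraries, had rank 5 in dorsal ones.

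The mixture of precursors differed between regions as well as their sum. The 10 genes added up to between 492.5 and 592 CPM per kilobase in ventral and between 56.3 and 109 in dorsal libraries. Pomc and Sst together made up 61.6% to 67.8% of that sum in ventral and 20.5% to 28.8% in dorsal libraries. Npy took 5.44% to 7.43% in ventral and 20.8% to 25.9% in dorsal libraries, and Cartpt 1.08% to 1.49% against 10.4% to 16.1%. The share of Pmch, by contrast, overlapped between regions, at 20.4% to 24.0% in ventral and 21.4% to 32.8% in dorsal libraries. These shares come from the same counts as the fold changes and were not tested separately.

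**Figure D3:**
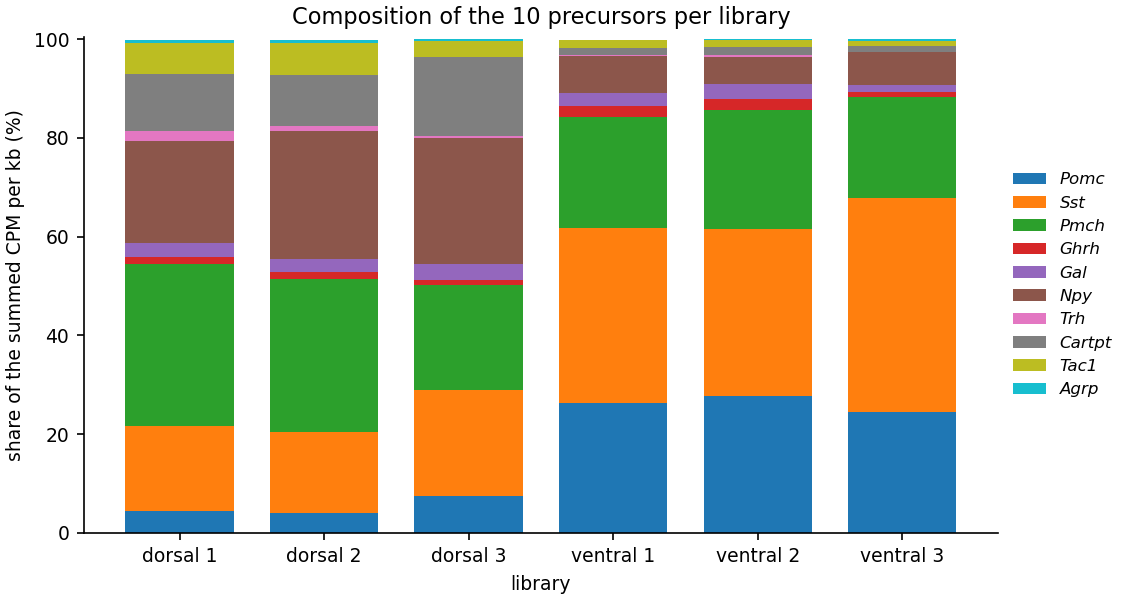
Share of each precursor in the summed CPM per kilobase of all 10, in percent, for each dorsal and ventral library. Pomc and Sst fill 61.6% to 67.8% of the ventral bars and 20.5% to 28.8% of the dorsal bars.

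Several of these peptides are also made in the gut, the pancreas and the pituitary, so the markers of those organs were set beside them. The small-intestine list summed to 5177, 9112 and 2441 CPM in ventral libraries 1, 2 and 3 and to between 10.4 and 16.1 CPM in dorsal libraries, with 16 of 17 tested genes higher in ventral. The exocrine pancreas list summed to 2456, 4464 and 1078 CPM against 7.22 to 13.97 CPM, with 14 of 14 higher. Among them were the defensins Defa23 and Defa3, near-identical copies whose reads could be shared, and Amy2a1 and Spink1 of the pancreas. Ventral library 2 held 3.73 times the small-intestine sum of ventral library 3 and 4.14 times its pancreas sum. The same ratio was 0.944 for Pomc, 0.648 for Sst, 0.980 for Pmch, 1.22 for Tac1, 1.75 for Ghrh and 1.78 for Gal. Pomc, Sst and Pmch were at least as high in library 3, with the least gut and pancreas RNA, as in library 2, with the most, and Tac1, Ghrh and Gal were lower in library 3. Of 8 tested genes of gut endocrine and islet cells, 4 were called higher in ventral tissue. The list summed to 52.6 to 85.85 CPM in ventral and 104.9 to 116.7 CPM in dorsal libraries. Ins2 was at 9.79, 13.8 and 1.004 CPM and Sct at 5.34, 9.70 and 4.29 CPM in ventral libraries, and both were called higher in ventral. Neurog3, on that list but also a gene of hypothalamic progenitors, was higher in ventral at 14.1, 13.3 and 18.4 CPM. The part of gut, pancreas and islet RNA in the ventral values was not tested for any of the 6 called precursors.

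**Figure D4:**
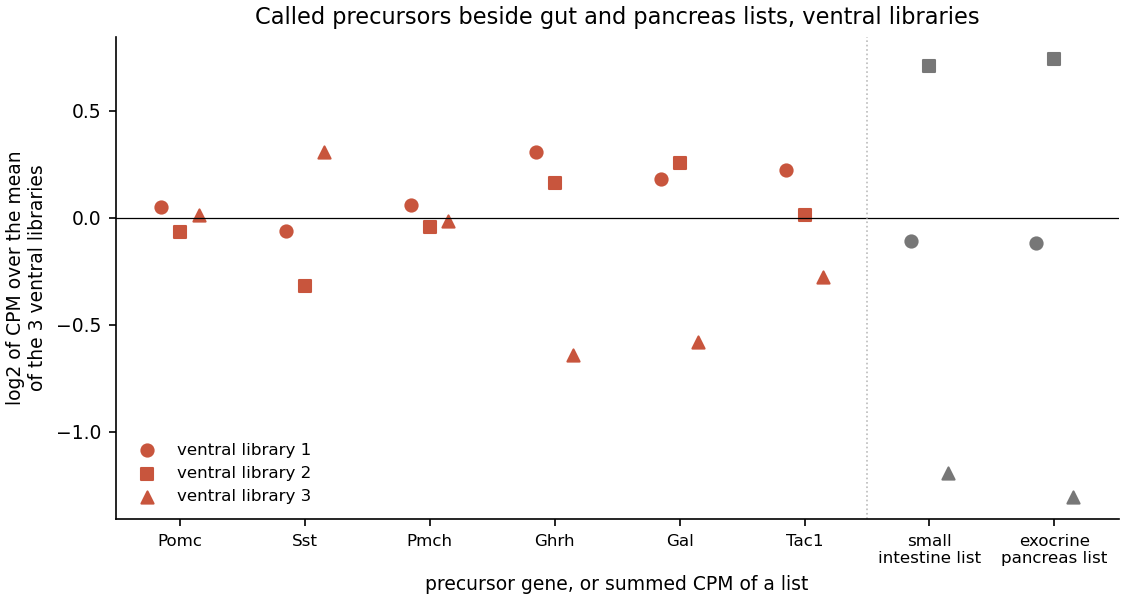
Level of the 6 called precursors (red) and summed level of the small-intestine and exocrine pancreas lists (grey) in each ventral library, as log2 of CPM over the mean of the 3 ventral libraries. Both lists are highest in library 2 and lowest in library 3, the 3 Pomc and the 3 Pmch points lie close to 0, and Ghrh and Gal are lowest in library 3.

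Pituitary genes were mostly near 0. Of 15 listed, 3 were tested and 1 was called: Tbx19, a T-box activator of Pomc in the pituitary, at 5.78, 9.27 and 13.7 CPM in ventral and at most 0.170 CPM in dorsal libraries (adjusted p = 0.00188 by edgeR). Hesx1, Fshb and Gh had 0 counts in every library, Cga and Prl had 0 in every ventral library, and Pitx1 was at 0.544, 2.87 and 0.948 CPM in ventral libraries. The summed list ran from 17.9 to 31.6 CPM in ventral and from 21.98 to 24.1 CPM in dorsal libraries. The ratio of its regional means was 1.07, against 33.7-fold for Pomc. The part of pituitary RNA in the ventral Pomc level was not tested. Sympathetic and neural crest genes, where Npy and Gal are also made, included Dbh at no more than 0.0481 CPM.

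Enzymes that turn precursors into peptides were in part higher in ventral libraries. Of 10 tested, 3 were higher in ventral and 0 in dorsal. Pcsk1, the convertase that cuts pro-opiomelanocortin first, was at 8.16, 10.1 and 5.80 CPM in ventral and 0.848, 1.64 and 0.511 CPM in dorsal libraries. All ventral libraries lay above all dorsal ones, for a log2 fold change of 2.99 ± 0.58 (adjusted p = 0.0105, edgeR). Qpct, which forms the pyroglutamate end of Trh, had a log2 fold change of 1.83 (adjusted p = 0.0257). Cpe, the carboxypeptidase that trims the basic residues, was abundant in both regions, at 755.8, 875 and 894 against 517, 548 and 517 CPM (log2 fold change 0.68, adjusted p = 0.0116). Pcsk2, the second convertase of dense-core granules, had a log2 fold change of 0.33 and an adjusted p of 0.352. Without dorsal library 1 the adjusted p of all 3 called enzymes missed the threshold, and 0 of the 10 passed.

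Of 12 tested granule and release genes, 5 were called higher in ventral tissue and 1 in dorsal tissue. Scg2, a granin that helps to form granules, was at 116, 118 and 106 CPM in ventral and 19.0, 22.2 and 21.97 CPM in dorsal libraries (log2 fold change 2.43, adjusted p = 0.000117 by edgeR), and it was called under all 15 alternatives. Cadps2, a priming factor of granule release, had a log2 fold change of 2.05 (adjusted p = 0.0125). Slc18a2, the vesicular monoamine transporter, was higher in dorsal, at 42.3, 38.5 and 43.4 against 15.8, 19.1 and 27.0 CPM (2.01-fold, adjusted p = 0.0273). Chga, the founding granin, did not pass, with 92.7, 92.1 and 85.9 against 92.9, 95.7 and 122 CPM. The count higher in ventral fell to 2 without dorsal library 1 and to 3 without dorsal library 2 or ventral library 1, and Slc18a2 was not called without any 1 of dorsal libraries 1 and 2 and ventral libraries 1 and 2.

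Receptors of the 10 peptides were scarce. Of 25 listed, 8 reached the minimum for testing and 3 had no counts in any library. Sstr2, a somatostatin receptor, was high where its ligand was low: 179, 182 and 125 CPM in the dorsal libraries against 16.0, 22.9 and 27.7 CPM in the ventral ones. All dorsal libraries stood far above all ventral ones, for a log2 fold change of -2.86 ± 0.27 (adjusted p = 0.000393, edgeR). The call held under all 15 alternatives. Mchr1, the receptor of the Pmch peptide, was higher in ventral like its ligand, at 5.63, 5.64 and 4.68 against 1.79, 1.49 and 0.738 CPM. Its adjusted p was 0.0390 by edgeR, and it was called under 6 of 14 alternatives, not among them any that left out dorsal library 1, 2 or 3 or ventral library 1 or 2. The melanocortin receptor Mc4r was at 1.33, 2.06 and 0 CPM in ventral and 3.53, 2.74 and 3.07 CPM in dorsal libraries and was not called (adjusted p = 0.429).

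Among 37 other neuropeptide precursors, 11 were tested, 2 were higher in ventral and 0 in dorsal. Avp, the vasopressin gene of magnocellular neurons, was at 4.84, 3.85 and 6.58 CPM in ventral libraries and had no counts in dorsal ones, at least 101.4-fold higher against 3 counts over the dorsal libraries (adjusted p = 0.00243 by edgeR). Pdyn, the dynorphin precursor, was at 37.0, 28.0 and 42.9 CPM in ventral and 2.59, 2.55 and 2.73 CPM in dorsal libraries (log2 fold change 3.77, adjusted p = 0.000125 by edgeR). Both held under every alternative in which they were tested. Crh was at 4.55, 3.36 and 0.167 against 0.283, 0.337 and 0.795 CPM and did not pass (adjusted p = 0.169). Oxt, the sister gene of Avp, reached at most 0.446 CPM in any library.

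Transcription factors known to act in peptide neurons of the hypothalamus were higher in ventral in most cases. Of the 27 tested in the list given above, the ones with the largest rise were Rax at 23.5, 21.5 and 29.9 against 0.235, 0.0481 and 0 CPM and Nr5a1 at 143, 132 and 211 against 1.22, 1.01 and 0.284 CPM. Lhx9 and Pou3f2 were the 2 higher in dorsal. Isl1, which activates Pomc, was at 447, 394 and 440 CPM in ventral and 46.7, 46.2 and 48.6 CPM in dorsal libraries (log2 fold change 3.18, adjusted p = 4.69e-05 by edgeR). Bsx, a regulator of Npy and Agrp, had a log2 fold change of 5.61 (adjusted p = 4.69e-05), and Gsx1 and Hmx2, both needed for Ghrh neurons, of 4.19 and 5.20 (adjusted p = 0.000138 and 0.000124). These 4 were named after their values were seen, for their known link to a precursor. Neuron genes differed less in sum, with a ratio of the mean summed levels of 1.09 against 7.20 for the 10 precursors. Tubb3 alone averaged 1830 CPM in ventral and 1751 CPM in dorsal libraries. Of the 12 neuron genes, 3 were called higher in ventral, among them Gap43 (1.74-fold) and Stmn2 (1.65-fold). Another 2, Dcx and Rbfox3, were called higher in dorsal (1.92-fold each). Of 11 progenitor genes, 2 were called higher in ventral tissue, Sox1 (2.97-fold) and Sox3 (2.82-fold). Another 5 were called higher in dorsal tissue, among them Pax6 (18.7-fold), Top2a (4.57-fold) and Mki67 (4.31-fold). The part of cell maturity in the precursor differences was not tested.

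The pattern across the 6 libraries was compared with that of 13496 protein-coding genes by Pearson's r of log2(CPM + 0.5). The closest were Cep19, Tshz2 and Adgra1 for Pomc (r of at least 0.9985), Msantd1, Cbln1 and Pomc for Sst, Dhrs7 and Bub3 for Pmch, and Tbx3 and Fggy for Ghrh (0.9997 for Tbx3). For Gal they were S100a6, Dhrs11 and Ifitm1, for Tac1 Cryzl1, Rsph3a and Vat1l, for Npy Higd2a, Pdzd2 and Actl6b, for Trh Npnt, AA986860 and Ampd2, and for Cartpt the ribosomal protein genes Rpl7a and Rpsa and the isomerase gene Ppib. Every gene named here had an r of at least 0.9883. At 0.99 or more, Pomc and Sst had 36 genes each, Pmch 96 and Ghrh 98, but Cartpt 3 and Trh 1. With 6 libraries in 2 regions, genes that differ between the regions score high together, and these values are a description only.

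In the E11.5 medial cortex, detection alone was recorded, at 1 TPM (transcripts per 1000000) or more. TPM keeps no depth, the labels describe these as separated single cells and name no animal, and each genotype therefore counts as 1 sample with no test between them. Axin2 itself reached 1 TPM in 11 of 13 libraries labelled Axin2(-/-), with a mean of 6.17 TPM and values up to 22.4 TPM, and in 12 of 12 labelled Axin2(+/+), with a mean of 13.8 TPM. Detection of Axin2 thus did not separate the labels, and which exons the allele removes is not given in the sources used here. Each of the 8 telencephalic genes was detected in at least 21 of the 25. Of 28 genes that specify the hypothalamus, 12, among them Nkx2-1, Otp and Nr5a1, were detected in 0.

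Pomc was the exception among the precursors. It was detected in 20 of 25 libraries, 12 of 13 labelled Axin2(-/-) (92.3%, exact Clopper-Pearson 95% interval 64.0% to 99.8%, counting error only) and 8 of 12 labelled Axin2(+/+) (66.7%, 34.9% to 90.1%). Where detected it ranged from 1.93 to 14.9 TPM with a median of 8.32 TPM. The mean was 8.58 TPM (SD 5.22) in the libraries labelled Axin2(-/-) and 4.86 TPM (SD 4.47) in those labelled Axin2(+/+). Over the whole table, 13.7% of genes were detected in at least as many libraries. The 5 libraries with Pomc at 0 had between 7863 and 10579 detected genes (median 9247), and the 20 others between 8204 and 12209 (median 11239). The part of library complexity in Pomc detection was not tested. The convertase Pcsk1 was listed at 0 in all 25 libraries, Pcsk2 was detected in 6, and Cpe in 25.

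The other 9 precursors were detected in fewer libraries than Pomc. Pmch was detected in 5 of 25, Sst in 4, Npy in 3, Ghrh and Gal in 2 each, and Cartpt, Tac1 and Agrp in 1 each. Of all 55487 genes, 24.4% were detected in at least as many libraries as Pmch, 25.8% as Sst and 27.6% as Npy. That share was 30.5% for Ghrh and Gal, and 38.0% of genes were detected in at least 1 library. Trh was listed at 0 in all 25, for which the exact interval reaches 13.7%. Npy gave the highest single value, 38.1 TPM, in a library labelled Axin2(+/+). At least 1 of these 9 was found in 14 libraries, and 2 or more in 4. Another library of that label held Pomc, Sst, Pmch and Ghrh together, at 3.96, 2.26, 16.7 and 4.91 TPM. No precursor but Pomc was detected in more than 3 libraries of either genotype. Of the receptors, Sstr2 was detected in 23 of 25 libraries with a median of 21.1 TPM, while 13 of the 25 listed receptors were detected in none.

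**Figure D5:**
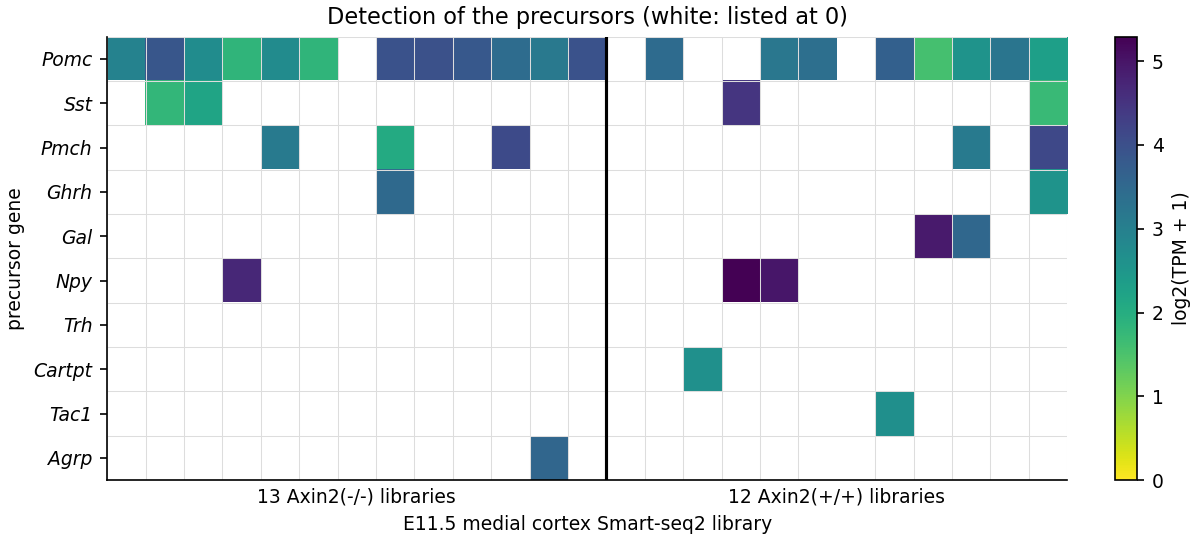
Detection of each precursor (row) in each Smart-seq2 library (column), as log2(TPM + 1), with white for genes listed at 0; the black line divides the 13 Axin2(-/-) from the 12 Axin2(+/+) libraries. The Pomc row is filled in 20 of 25 columns and no other row in more than 5.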

How the data were processed

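Bulk libraries (3 dorsal and 3 ventral diencephalon) and 25 Smart-seq2 libraries were grouped by their labels. STAR 2.7.0a, Trimmomatic, featureCounts, mm10 and GRCm38 are named in the submitters' processing notes, without role or order. The authors deposited the bulk values under a TPM name, but their columns sum to 17604411 or more and 46.6% of values above 0 are whole within 0.0001, so they were taken as estimated counts and rounded. The deposited Smart-seq2 table is in TPM, since its columns sum to 1000000 within 1. GENCODE M21 gave a symbol to 34581 of 34865 bulk identifiers, exon lengths and coordinates (GRCm38).

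After a minimum of 1 CPM on the mean over the 6 libraries, genes were tested with edgeR 4.0.16 (TMM, quasi-likelihood F test, R 4.3.3), p-values were adjusted by Benjamini-Hochberg, and the procedure was tested on simulated data. Alternatives used DESeq2 1.42.0, limma 3.58.1 on log2(CPM + 1) or log2(CPM + 0.5), other scalings and minimums, a replicate block and 1 library left out.

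The members and gene lists were chosen with earlier results of these data known. Named are all 10 members, the genes of each list with the largest fold change past the threshold (up to 2 per direction, otherwise the 2 highest means) and the 3 genes most like each member. Others were named after their values were seen. Some genes the rule names in the telencephalic and thalamic lists are given as counts only. A few other genes chosen in this way are not reported here.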

Additional observations from a re-analysis of the deposited data

How the results depend on the processing

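Over the alternatives, 6 precursors were called higher in ventral in the main analysis, between 4 and 7 without 1 library, and 3 with libraries 1 and 2 of each region summed, a setting chosen after seeing the data. No precursor was called higher in dorsal in any of the 15. Trh turned to -0.06 with the replicate block (adjusted p = 0.98), and Cartpt to 0.18 without dorsal library 3 (range without 1 library -0.74 to 0.18); the cause was not tested. Without 1 library, the genes called numbered 843 to 1928 higher in ventral and 498 to 1695 higher in dorsal; with libraries summed they were 535 and 282, with fewer samples. Processing enzymes higher in ventral numbered 5 by DESeq2, 0 with libraries summed and 0 to 5 without 1 library (0 without dorsal library 1, 5 without dorsal library 3). Granule genes higher in ventral were 2 with the replicate block or libraries summed and 2 to 6 without 1 library, and those higher in dorsal 0 with libraries summed and 0 to 1 without 1 library. Receptors higher in ventral were 0 with no minimum, a 5 CPM minimum, the replicate block or libraries summed, and 0 to 1 without 1 library; those higher in dorsal were 2 by DESeq2, by limma with either pseudocount and with no minimum, and 1 to 2 without 1 library (2 without ventral library 2 or 3). Other neuropeptides higher in ventral were 1 with a 5 CPM minimum, where fewer genes are tested, and 2 to 4 without 1 library (4 without ventral library 3); higher in dorsal there was 1 by DESeq2 and 0 to 1 without 1 library. At 5 TPM, Sst was detected in 0% of Axin2(-/-) and Ghrh in 0% of Axin2(+/+) libraries. Libraries of the same number deviated together with correlations of 0.099, 0.148 and 0.165, and dorsal library 2 correlated more with ventral library 1 (0.187), so the numbers were not taken as pairs; the replicate block changed no call of a precursor. Scaling by library totals moved the median log2 fold change by -0.046. Depth limits Agrp most, with 22 dorsal and 73 ventral counts in all, while for Trh the spread between ventral libraries (44, 50 and 0 counts) limits the comparison.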
